A study of Mus musculus with 21 samples.

Results

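The genes described here carry long-chain fatty acids into heart cells and burn them in the mitochondria. The set holds 35 genes, taken by symbol from the 24054 rows of the deposited count table. All 35 had a row, and all 35 were among the 14135 genes with enough counts to be tested. They fall into 8 steps: uptake, activation and thioesterases, the carnitine shuttle, its control by malonyl-CoA, the beta-oxidation core, the auxiliary enzymes for unsaturated fatty acids, electron transfer, and lipid droplets with uncoupling.

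Expression was measured by stranded total RNA sequencing of left ventricle myocardium from 21 C57BL/6J mice, 1 library per ear-tagged animal. Transverse aortic constriction without drug (TAC, a narrowing of the aorta that overloads the left ventricle) gave 5 libraries. TAC with the PDE5A inhibitor sildenafil gave 5, TAC with the PDE9A inhibitor PF-04449613 gave 6, and sham surgery without drug gave 5. Inhibitors were given for 4 weeks from 1 week after surgery, and the sources state neither doses, sex and age nor whether the untreated groups had a vehicle. PDE5A and PDE9A break down cyclic GMP, and the comparisons ask what overload did to these genes and whether either inhibitor altered that.

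Fatty acids are the main fuel of the adult heart. They are freed from lipoproteins, taken up with the help of CD36, bound by small carrier proteins and activated to acyl-CoA. Acyl-CoA crosses the inner mitochondrial membrane as acylcarnitine, made by CPT1, which malonyl-CoA inhibits, and is turned back into acyl-CoA by CPT2. Each turn of beta-oxidation then removes a short carbon unit as acetyl-CoA and passes electrons through the electron transfer flavoprotein to the respiratory chain. Many of these genes are known targets of PPAR-alpha, ERR and PGC-1 in the heart, and their expression is known to decline in hypertrophied and failing hearts.

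Library totals were 22.67 to 40.99 M counts. Rn45s, a ribosomal RNA precursor, took 0.326% and 0.416% of the counts in PDE9A inhibitor libraries 1 and 4, the highest shares of any library. Among 12 cardiomyocyte markers none was at 0, and their summed level was 138700 to 180000 CPM (counts scaled to library size) in TAC, 148800 to 180800 in the PDE5A inhibitor group, 167300 to 199400 in the PDE9A inhibitor group and 178400 to 197600 in sham. Of 8 adipocyte markers, Adipoq had at most 9 counts, Plin1 at most 7 and Lep at most 1 in any library, Cfd had up to 51, and Slc36a2 had 101 to 408 in TAC and 356 to 832 in sham. Their summed level was 3.69 to 13.7 CPM in TAC and 13.3 to 20.5 CPM in sham.

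Fatty acid genes were lower in TAC than in sham at every step of the pathway. Of the 35 genes, 29 fell and none rose (edgeR quasi-likelihood test, Benjamini-Hochberg adjusted p under 0.05), where 13% of all tested genes were called lower and 12.2% called higher. All 35 had a fold change below 0, against 50.1% of all tested genes. Their median log2 fold change was -0.59, against -0.00 over all tested genes. An unadjusted p under 0.05 was reached by 33 of the genes, against 39.6% of all tested genes. In 18 genes every TAC library was below every sham library, which held for 8% of all tested genes. The 6 that did not pass were Fabp3, Acot13, Cpt1a, Acacb, Acads and Dgat2. In bulk tissue, fewer cells of a type and less RNA per cell cannot be told apart.

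**Figure D1:**
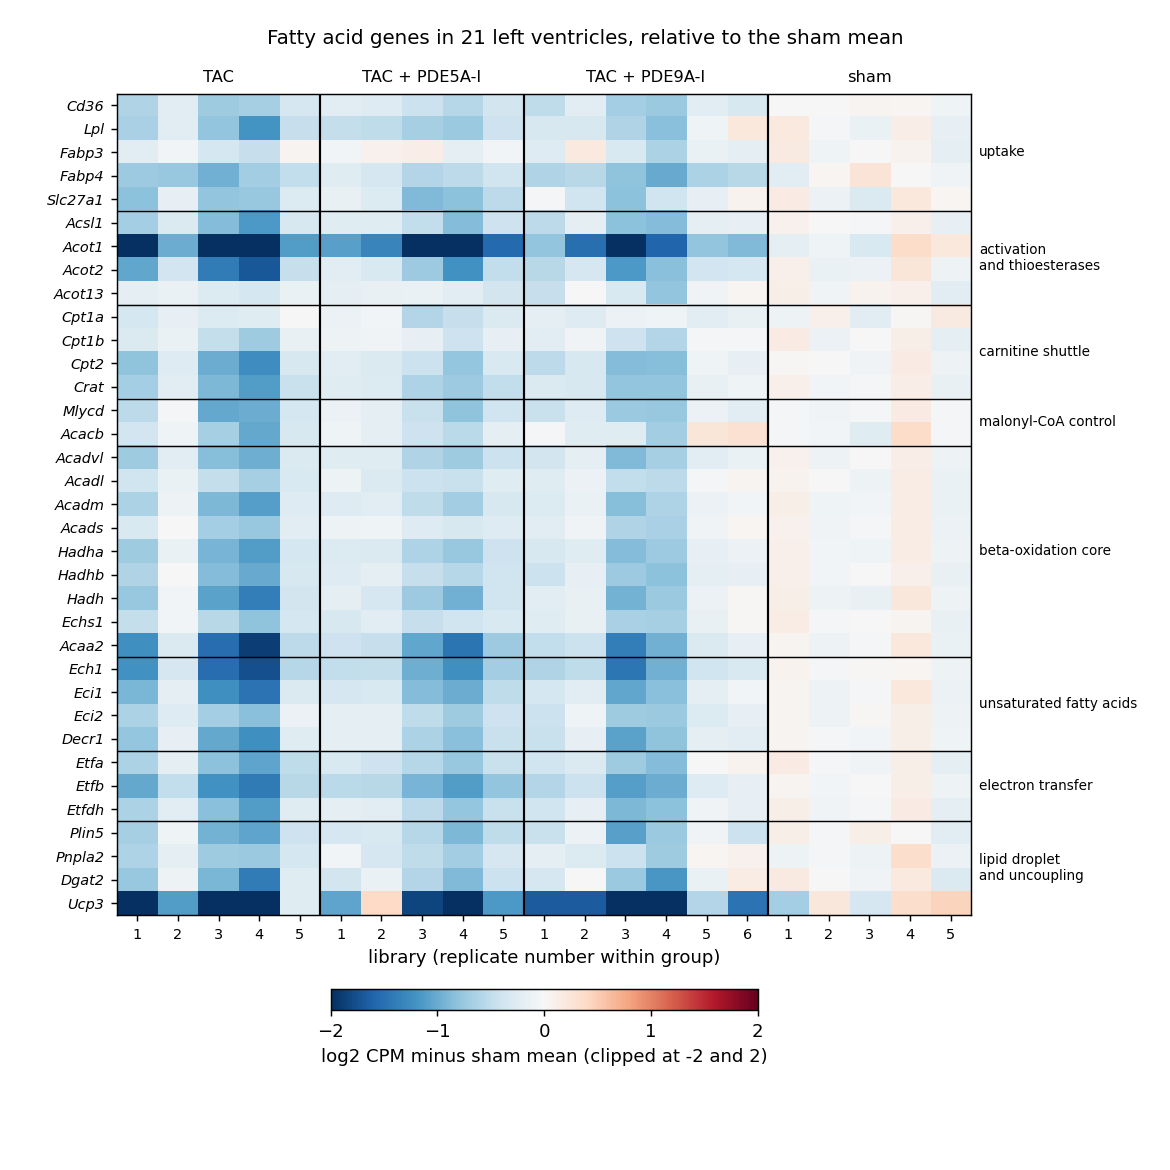
Each row is a gene, grouped by step, and each column a library; colour gives log2 CPM minus the sham mean, blue lower and red higher, with values beyond -2 and 2 drawn at the limit. TAC libraries 3 and 4 are blue in every row, TAC library 2 is the palest of its group in most rows, and the sham columns stay near white.

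The genes' summed share of all counts was 2.13% ± 0.448 in TAC and 2.96% ± 0.119 in sham (SD, n = 5 each). The fall was not even across animals. The mean log2 level of the 35 genes, relative to sham, was -0.79, -0.24, -0.99, -1.15 and -0.34 in TAC libraries 1 to 5. TAC library 4 was the lowest of its group for 29 genes and TAC library 2 the highest for 30. The median SD of the genes among TAC libraries was 0.37 on the log2 scale, against 0.18 over all tested genes, and among sham libraries both were 0.14.

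The number of calls depended on single libraries, while the direction did not. It was 12 without TAC library 3, 13 without TAC library 4, 17 without TAC library 1, 16 without sham library 4 and 19 without sham library 1, in place of 29. Calls over all tested genes fell as well, from 3558 to 2019, 1781, 2555, 2396 and 2440 in these fits, in the same order. In every fit that left out 1 of the 21 libraries all 35 genes stayed below 0. The calls that held in all of those fits were 12: Cd36, Lpl, Fabp4, Acsl1, Acot1, Acot2, Cpt2, Crat, Acadvl, Ech1, Etfa and Etfb. How many of all called genes held in every fit was not counted, so the 12 have no background to be set against.

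Cell type markers moved between the same groups. Of the 12 cardiomyocyte markers, 3 fell in TAC (Myh6, Actc1 and Tnni3), with a median log2 fold change of -0.13 over the list. Of 10 fibroblast markers 8 rose, with a summed level of 4263 to 6799 CPM in TAC and 2347 to 3155 CPM in sham, and of 8 activated fibroblast markers 7 rose. None of 10 endothelial markers and none of 7 macrophage markers was called. Of 6 smooth muscle markers 1 rose, Tagln, by 1.12 (SE 0.40, edgeR adjusted p = 0.0454). Of 2 adipocyte markers with enough counts 1 fell, Slc36a2, by 0.94 (SE 0.29, edgeR adjusted p = 0.0262). The other was above 0, at 0.49, and was not called. All 7 erythroid markers were below 0, with a median of -0.76, and none was called, while their summed level was 270.1 to 707.2 CPM in TAC and 380.2 to 1230 CPM in sham. When libraries were scaled to the cardiomyocyte markers instead of TMM (trimmed mean of M-values, the scaling used for every other value here), 25 of the 35 genes were still called lower and 32 were below 0. Fabp3 (0.04), Acot13 (0.02) and Cpt1a (0.03) moved just above 0. That scaling moved the median of all genes to 0.24, and relative to it all 35 genes were below and their median was -0.62. It also changed the split of all calls: 13.1% of called genes were lower, against 51.7% with TMM and 31.8% with library totals alone.

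Uptake genes fell in 4 of 5 cases. Fabp4 encodes a fatty acid binding protein known from adipocytes, macrophages and capillary endothelium (chr3:10204088-10208576, minus strand, GRCm38). Its level was 288, 283, 245, 296 and 339.6 CPM in TAC, and 406, 378, 319, 333 and 362 CPM in the PDE5A inhibitor group. It was 239, 311 and 327 CPM (lowest, median and highest) in the PDE9A inhibitor group, and 408, 494, 571, 481 and 455 CPM in sham. Every library of the 3 overloaded groups was below every sham library, and the PDE5A inhibitor libraries lay above all TAC libraries in 3 of 5 cases. In TAC, Fabp4 fell by 0.73 on the log2 scale (SE 0.10, edgeR adjusted p = 0.00161), the sixth-lowest p of all tested genes. The summed adipocyte markers given above were also lower in TAC than in sham. Slc36a2 had the most counts of them in every library (101 to 408 in TAC, 356 to 832 in sham). The other tested marker was above 0 in TAC against sham, at 0.49, and Adipoq, Plin1 and Lep were at or near 0 in all libraries. The summed endothelial markers were 1008 to 1306 CPM in TAC and 948 to 1241 CPM in sham. The part of either cell type in the fall of Fabp4 was not tested.

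Cd36, the fatty acid translocase of cardiomyocytes and endothelium, followed the same order. It was at 1733, 2278, 1616, 1660 and 2092 CPM in TAC, and at 2251, 2207, 1950, 1768 and 2050 CPM in the PDE5A inhibitor group. PDE9A inhibitor libraries had a lowest, median and highest level of 1579, 1985 and 2284 CPM, and sham had 2623, 2656, 2727, 2725 and 2474 CPM. No library of an overloaded group reached the lowest sham library. The fall in TAC was 0.49 (SE 0.12, edgeR adjusted p = 0.00716).

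Lpl, the lipoprotein lipase that frees fatty acids from circulating triglyceride, also fell in TAC, by 0.63 (SE 0.17). Its level was 3557, 4748, 3224, 2434 and 4046 CPM in TAC and 3981, 3928, 3514, 3342 and 4178 CPM in the PDE5A inhibitor group. In the PDE9A inhibitor group it was 3122, 4453 and 6442 CPM at the lowest, median and highest, and in sham 6373, 5463, 5068, 6096 and 4946 CPM. Only the PDE9A inhibitor group reached into the sham range. Slc27a1, a fatty acid transport protein, fell by 0.54 (SE 0.17).

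Fabp3, the carrier of cardiomyocytes and the most abundant of the 35 genes per transcript length, did not pass. It was at 2411, 2680, 2191, 2020 and 2906 CPM in TAC, and at 2691, 2950, 3062, 2433 and 2673 CPM in the PDE5A inhibitor group. In the PDE9A inhibitor group the lowest, median and highest were 1804, 2388 and 3192 CPM; sham had 3163, 2623, 2797, 2933 and 2456 CPM. All 4 groups overlapped, and the log2 fold change in TAC was -0.19, with an interval of 2 SE to each side from -0.45 to 0.06.

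**Figure D2:**
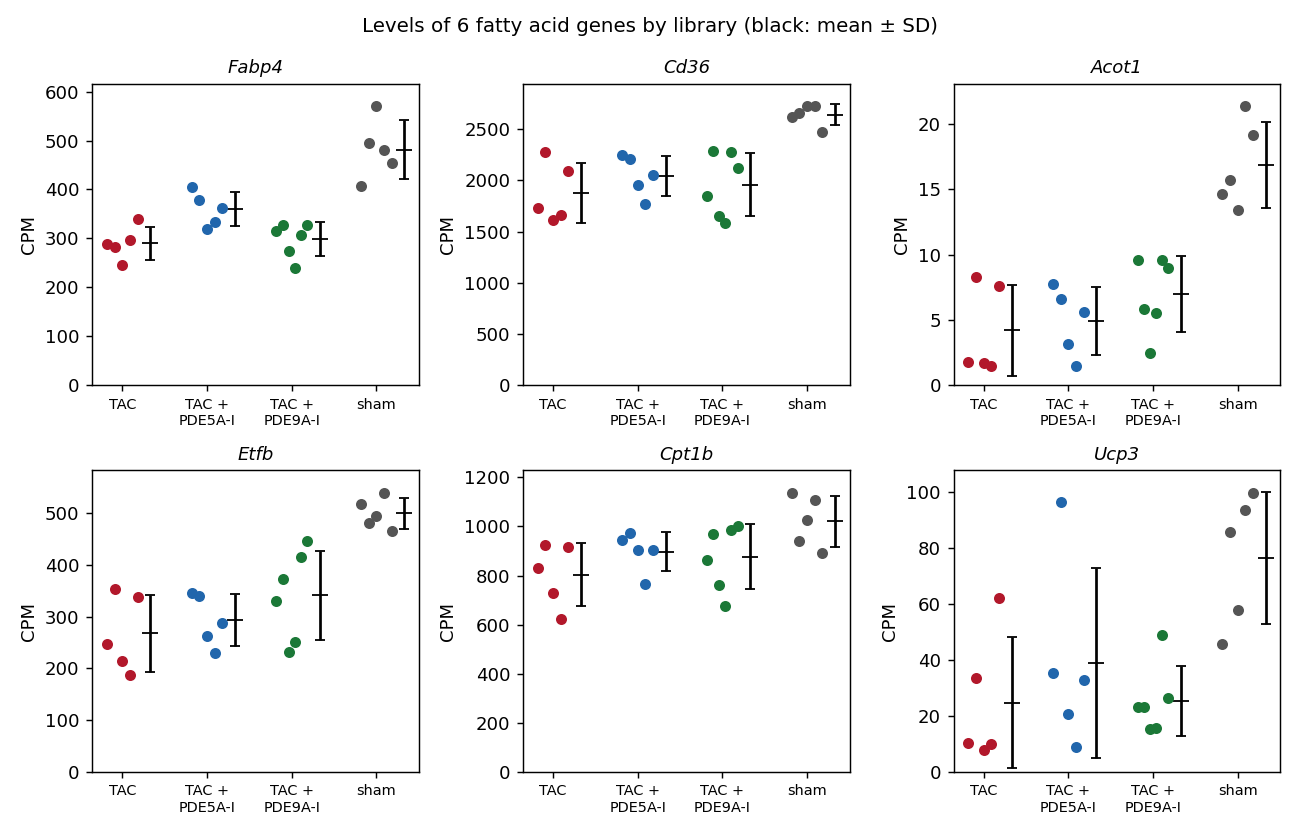
Each panel shows 1 gene with CPM on the vertical axis from 0; points are libraries, and the black mark is the group mean with its SD. For Fabp4, Cd36, Acot1 and Etfb all overloaded libraries lie below the sham libraries, while Cpt1b and Ucp3 overlap.

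In activation and thioesterases 3 of 4 genes fell. Acsl1, the main long-chain acyl-CoA synthetase of the heart, fell by 0.63 (SE 0.17). Acot1 and Acot2, thioesterases of the cytosol and the mitochondria that release free fatty acid from acyl-CoA, fell by 2.03 (SE 0.50, edgeR adjusted p = 0.00892) and by 0.92 (SE 0.23). Acot1 had the largest fold change of the 35 genes, on a low level. It was at 1.79, 8.31, 1.70, 1.48 and 7.63 CPM in TAC, and at 7.78, 6.62, 3.14, 1.46 and 5.59 CPM in the PDE5A inhibitor group. Lowest, median and highest were 2.42, 7.41 and 9.59 CPM with the PDE9A inhibitor, and sham had 14.7, 15.7, 13.4, 21.4 and 19.2 CPM. TAC libraries 2 and 5 lay well above the other 3, and no overloaded library reached sham.

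Acot2 was at 64.1, 100.2, 49.9, 40.7 and 94.8 CPM in TAC, and at 112, 106, 79.3, 56.6 and 93.7 CPM in the PDE5A inhibitor group. With the PDE9A inhibitor the lowest, median and highest were 59.1, 94.6 and 104 CPM, and sham had 141, 119.8, 121, 156 and 122 CPM. As for Acot1, all overloaded libraries were below all sham libraries. Acot1 and Acot2 lie 15617 bases apart on chromosome 12 and are near copies: 95.6% of 1230 aligned coding bases were identical, and 43.6% of the 50-base windows of Acot1 also occur in Acot2. Reads from such windows are shared out by RSEM's model, so the split between the 2 genes is uncertain. Within the aligned coding bases, only reads over a differing base tell the copies apart. Bases outside the alignment, including untranslated ones, were not compared. The coding stretch with the densest differences is shown from GRCm38 (chr12:84016926-84017005 for Acot1 and chr12:83992648-83992727 for Acot2, plus strand), with the 14 differing bases in capitals.
Acot1: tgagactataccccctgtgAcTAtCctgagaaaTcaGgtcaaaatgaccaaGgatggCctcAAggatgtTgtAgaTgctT
Acot2: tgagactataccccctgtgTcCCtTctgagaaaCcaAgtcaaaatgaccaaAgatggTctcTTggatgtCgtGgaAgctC

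Acot13, a mitochondrial thioesterase of another protein family, did not pass. It was at 173, 179.7, 163, 155 and 179 CPM in TAC, and at 174, 178, 179.6, 169 and 152 CPM in the PDE5A inhibitor group. PDE9A inhibitor libraries had a lowest, median and highest level of 114, 174 and 203 CPM, and sham had 214, 188, 207, 211 and 169.8 CPM. The groups overlapped, and the log2 fold change in TAC was -0.22 (SE 0.12).

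In the carnitine shuttle 3 of 4 genes fell. Crat, carnitine acetyltransferase, which buffers acetyl-CoA, had the lowest p of the step. Its level was 391, 542, 335, 289 and 460.4 CPM in TAC, and 527, 519, 407, 377 and 445 CPM in the PDE5A inhibitor group. In the PDE9A inhibitor group the lowest, median and highest were 362, 506 and 589.7 CPM; sham had 669, 603, 613, 686 and 567.8 CPM. No TAC or PDE5A inhibitor library reached sham, and Crat fell by 0.64 in TAC (SE 0.16, edgeR adjusted p = 0.00954). Cpt2, the acyltransferase of the inner membrane, was at 144, 208, 125, 105 and 200.1 CPM in TAC, and at 215, 203, 185, 146 and 201 CPM in the PDE5A inhibitor group. Lowest, median and highest were 136, 187 and 236 CPM with the PDE9A inhibitor, and sham had 255, 249, 237, 279 and 231 CPM. TAC and PDE5A inhibitor libraries all lay below sham, and Cpt2 fell by 0.68 in TAC (SE 0.18).

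CPT1, the step that malonyl-CoA inhibits, has 2 relevant isoforms: Cpt1b, of muscle, and Cpt1a, of liver and the fetal heart. Cpt1b was at 832, 923, 727, 621 and 916 CPM in TAC, and at 945, 973, 902, 766 and 902 CPM in the PDE5A inhibitor group. With the PDE9A inhibitor the lowest, median and highest were 677, 917 and 1003 CPM, and sham had 1138, 941, 1026, 1108 and 891 CPM. The groups overlapped, and Cpt1b fell by 0.34 in TAC (SE 0.12, edgeR adjusted p = 0.0416), the smallest of the 29 called changes. That call was lost without any of sham libraries 1 to 4, TAC libraries 1, 3 or 4, or PDE5A inhibitor libraries 1, 3 or 5 (adjusted p at most 0.128), and it was lost in 15 of 29 alternatives in all (adjusted p at most 0.146).

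Cpt1a was at 66.5, 76.0, 70.6, 72.0 and 85.1 CPM in TAC, and at 78.5, 81.8, 56.9, 61.8 and 69.4 CPM in the PDE5A inhibitor group. PDE9A inhibitor libraries had a lowest, median and highest level of 71.4, 75.9 and 80.5 CPM, and sham had 79.2, 91.3, 73.2, 86.9 and 96.6 CPM. The groups overlapped, and the log2 fold change in TAC was -0.21 (SE 0.09, edgeR adjusted p = 0.103). Cpt1a took 8.55% ± 1.19 of the summed CPM of both isoforms in TAC, 7.19% ± 0.743 in the PDE5A inhibitor group, 8.13% ± 1.53 in the PDE9A inhibitor group and 7.81% ± 1.44 in sham (SD, n = 5, 5, 6 and 5). None of 6 pairwise comparisons passed; the lowest was PDE5A inhibitor against TAC (two-sided exact permutation p = 0.0714, adjusted p = 0.429), where the smallest possible p is 0.00794.

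Of the pair that sets malonyl-CoA, Mlycd fell and Acacb did not pass. Mlycd encodes malonyl-CoA decarboxylase, which removes the inhibitor. It was at 82.7, 116, 58.3, 59.9 and 92.8 CPM in TAC, and at 109.7, 103, 86.7, 68.0 and 89.7 CPM in the PDE5A inhibitor group. In the PDE9A inhibitor group the lowest, median and highest were 70.4, 93.2 and 109 CPM; sham had 116, 113, 116, 133 and 116 CPM. TAC library 2 lay within the sham range, and the fall in TAC was 0.54 (SE 0.17, edgeR adjusted p = 0.0271).

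Acacb, acetyl-CoA carboxylase 2, makes malonyl-CoA at the mitochondrial surface. It was at 428, 525, 349.6, 273 and 442 CPM in TAC, and at 522, 483, 418, 381 and 486 CPM in the PDE5A inhibitor group. Lowest, median and highest were 342, 505 and 687 CPM with the PDE9A inhibitor, and sham had 538, 537, 470.0, 719 and 540.0 CPM. All groups overlapped, and the log2 fold change in TAC was -0.47 (SE 0.18, edgeR adjusted p = 0.054).

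In the beta-oxidation core 8 of 9 genes fell. Acadvl, very long-chain acyl-CoA dehydrogenase, which starts the cycle for the longest chains, had the lowest p. It was at 826, 1158, 743, 685 and 1106 CPM in TAC, and at 1142, 1137, 889, 820.3 and 997 CPM in the PDE5A inhibitor group. With the PDE9A inhibitor the lowest, median and highest were 729, 1107 and 1224 CPM, and sham had 1423, 1258, 1334, 1476 and 1259 CPM. No overloaded library reached sham, and the fall in TAC was 0.58 (SE 0.16, edgeR adjusted p = 0.0129).

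The dehydrogenases for long and medium chains, Acadl and Acadm, fell by 0.39 (SE 0.11) and 0.55 (SE 0.17). Acads, the short-chain enzyme, was the one core gene that did not pass. It was at 171, 215, 133, 126 and 184 CPM in TAC, and at 198, 199.9, 177, 171 and 179 CPM in the PDE5A inhibitor group. PDE9A inhibitor libraries had a lowest, median and highest level of 135, 193 and 218 CPM, and sham had 226, 202, 207, 236 and 196 CPM. TAC library 2 lay inside the sham range, and the log2 fold change was -0.36 (SE 0.14, edgeR adjusted p = 0.0594).

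Hadha and Hadhb encode the alpha and beta subunits of the mitochondrial trifunctional protein, which carries out the remaining steps for long chains. They lie head to head on chromosome 5, on opposite strands, with GENCODE starts 86 bases apart, and fell by 0.61 (SE 0.17) and 0.52 (SE 0.16). For shorter chains, Echs1 (enoyl-CoA hydratase) fell by 0.43 (SE 0.13) and Hadh (3-hydroxyacyl-CoA dehydrogenase) by 0.66 (SE 0.22). Acaa2, the thiolase of the last step, had the largest fall of the core, 0.97 (SE 0.27), with 465 ± 213 CPM in TAC and 914 ± 91.1 CPM in sham (SD, n = 5 each).

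All 4 auxiliary enzymes for unsaturated fatty acids fell, and for each of them every TAC library was below every sham library. Ech1, dienoyl-CoA isomerase, was at 574, 1045, 460.1, 392 and 893 CPM in TAC, and at 947, 950.1, 674, 567 and 819 CPM in the PDE5A inhibitor group. In the PDE9A inhibitor group the lowest, median and highest were 487, 906 and 1076 CPM; sham had 1387, 1295, 1347, 1366 and 1239 CPM. Ech1 fell by 0.98 in TAC (SE 0.24, edgeR adjusted p = 0.0089), and sham was narrow where TAC spread widely. Eci1 and Eci2, enoyl-CoA isomerases, fell by 0.73 (SE 0.23) and 0.48 (SE 0.14), and Decr1, the dienoyl-CoA reductase, by 0.63 (SE 0.20).

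Electron transfer fell in full. Etfb, which encodes one subunit of that flavoprotein, was at 246, 353, 215, 187 and 338 CPM in TAC, and at 345, 340.4, 263, 229 and 288 CPM in the PDE5A inhibitor group. Lowest, median and highest were 232, 351 and 446 CPM with the PDE9A inhibitor, and sham had 517, 481, 494, 539 and 465 CPM. No overloaded library reached sham, and Etfb fell by 0.90 in TAC (SE 0.18, edgeR adjusted p = 0.00402). Its partner Etfa fell by 0.62 (SE 0.17), and Etfdh, the oxidoreductase that hands the electrons to ubiquinone, by 0.57 (SE 0.18).

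Of the lipid droplet and uncoupling genes 3 of 4 fell. Pnpla2, adipose triglyceride lipase, which starts the breakdown of stored triglyceride, was at 140.4, 189, 132, 128 and 167 CPM in TAC and 207, 171, 151, 133 and 170.2 CPM in the PDE5A inhibitor group. With the PDE9A inhibitor the lowest, median and highest were 131, 183 and 228 CPM, and sham had 199.9, 211, 199.7, 273 and 198 CPM. No TAC library reached sham, and the fall was 0.51 (SE 0.15, edgeR adjusted p = 0.0183). Plin5, the perilipin that ties droplets to mitochondria, fell by 0.59 (SE 0.18).

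Dgat2, which makes triglyceride, did not pass. It was at 219, 346, 197, 141 and 312 CPM in TAC, and at 288, 338, 247, 201 and 275 CPM in the PDE5A inhibitor group. PDE9A inhibitor libraries had a lowest, median and highest level of 166, 316 and 409 CPM, and sham had 420.1, 368, 353, 423 and 302 CPM. The log2 fold change in TAC was -0.62 (SE 0.23, edgeR adjusted p = 0.0578), against -0.63 (SE 0.17) for Acsl1, which passed. Ucp3, the uncoupling protein of muscle mitochondria, fell by 1.63 (SE 0.59, edgeR adjusted p = 0.0484), with 24.7 ± 23.4 CPM in TAC and 76.5 ± 23.6 CPM in sham (SD, n = 5 each). Its TAC libraries reached from 7.90 to 62.0 CPM, into the sham range of 45.5 to 99.8 CPM. The call was lost in 20 of 29 alternatives, with adjusted p up to 0.126: without any 1 sham library, TAC library 1, 3 or 4, PDE5A inhibitor library 1, 3 or 5, or any PDE9A inhibitor library but library 5, and in 4 of the other 8 alternatives.

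Per kb of transcript, levels spanned a wide range. Fabp3 was highest, with a mean of 2967 CPM per kb in TAC and 3395 in sham. Lpl had 875 in TAC and 1358 in sham, and Hadhb 842 in TAC and 1203 in sham. Ucp3 had 13.3 CPM per kb in TAC and 41.3 in sham, Cpt1a 17.2 in TAC and 19.8 in sham, and Acot1 was lowest, with 1.84 in TAC and 7.43 in sham. Transcript length here is the median over a gene's annotated coding transcripts, so small differences between genes should not be read.

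**Figure D3:**
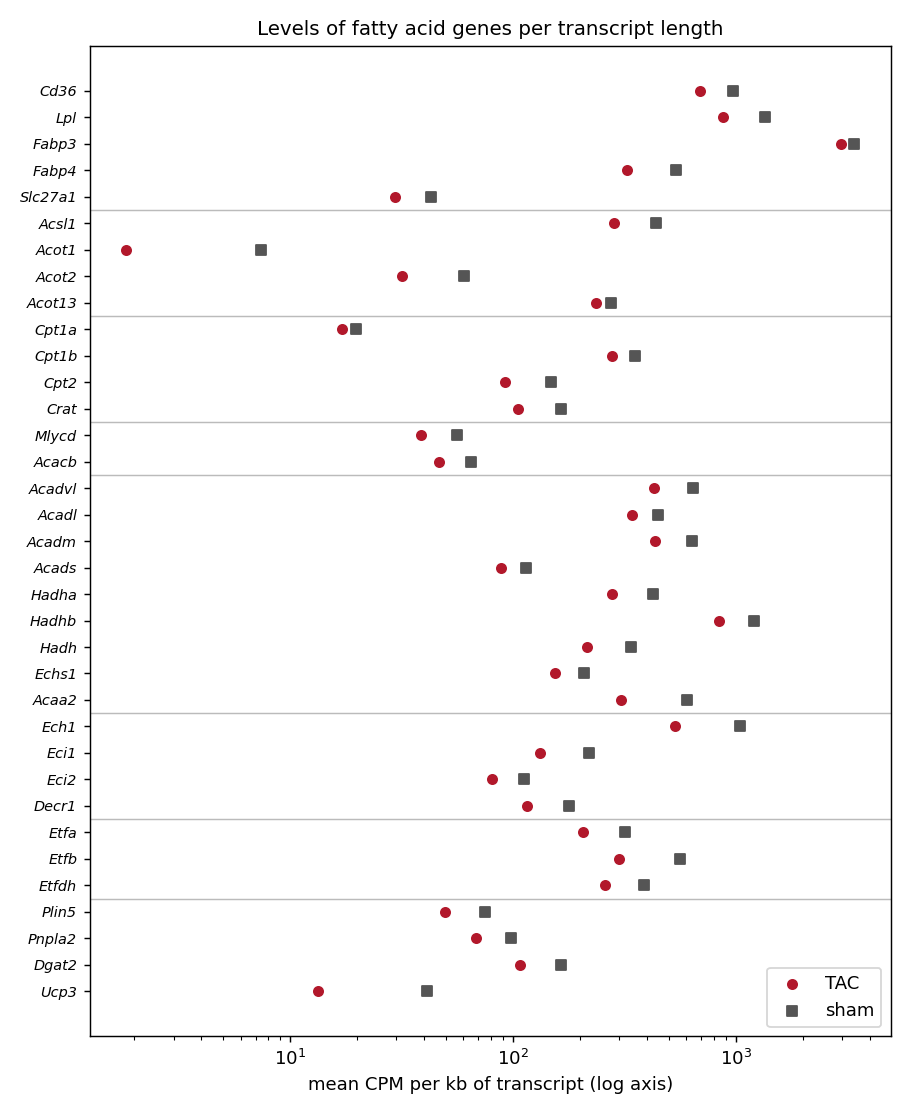
Mean CPM per kb of transcript on a log axis for each of the 35 genes, in TAC (circles) and sham (squares), grouped by step. With TMM scaling the TAC circle lies left of the sham square in every row, with the widest gaps at Acot1 and Ucp3.

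Among 50 other tested genes of the pathway, 21 fell in TAC, 1 rose and 28 did not pass, with a median log2 fold change of -0.32. Of all tested genes, 13% were called lower and 12.2% higher. Of the uptake genes in this second list, Gpihbp1, which anchors lipoprotein lipase on capillaries, fell by 0.58 (SE 0.11), and Fabp5, a carrier, by 0.52 (SE 0.14). Acss1, the mitochondrial acetyl-CoA synthetase, fell by 0.71 (SE 0.17), and Dbi, the acyl-CoA binding protein, by 0.47 (SE 0.12). Slc22a5, the carnitine transporter, fell by 0.47 (SE 0.15). In mitochondrial oxidation Mut fell by 0.54 (SE 0.14) and Hsd17b10 by 0.48 (SE 0.15). In peroxisomal oxidation Abcd3, a fatty acyl-CoA transporter, fell by 0.48 (SE 0.12) and Ehhadh, the bifunctional enzyme, by 0.84 (SE 0.27). In lipid storage Agpat3 fell by 0.60 (SE 0.10) and Lipe, hormone-sensitive lipase, by 0.97 (SE 0.20). Acot9, a mitochondrial thioesterase, was the single gene that rose, by 0.43 (SE 0.12, edgeR adjusted p = 0.0148). The count of falls was 12 without TAC library 3, TAC library 4 or sham library 4, and 13 without TAC library 1. Calls over all genes in those fits were 2019, 1781, 2396 and 2555, in place of 3558. Acot9 was not called without TAC library 4. With libraries scaled to the cardiomyocyte markers, 10 fell and 8 rose, where 670 of all 14135 tested genes were called lower and 4444 higher.

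Exact copies of receptor motifs were searched in promoters of these genes. Such copies were uncommon over all genes too, so their counts cannot tell whether the promoters share binding sites. A RefSeq promoter window (GRCm38.p6, 250 bases before to 50 after the start) was on hand for 27 of the 35. The core site of the estrogen-related receptors, AAGGTCA, was searched on both strands and was in 2 of the 27, Acadm and Acacb, and in 5.38% of 27025 genes. The extended site, in which TC precedes the core, was in none of the 27 and in 0.466% of all, and a strict direct repeat spaced by 1 base (DR1, the PPAR element) was in none of the 27 and in 0.0481% of all. The Acadm promoter is shown because it is the one of a fallen gene that holds a match (chr3:153944594-153944893, minus strand), with the match, TGACCTT on this strand, in capitals at bases -249 to -243 from the start.
Acadm: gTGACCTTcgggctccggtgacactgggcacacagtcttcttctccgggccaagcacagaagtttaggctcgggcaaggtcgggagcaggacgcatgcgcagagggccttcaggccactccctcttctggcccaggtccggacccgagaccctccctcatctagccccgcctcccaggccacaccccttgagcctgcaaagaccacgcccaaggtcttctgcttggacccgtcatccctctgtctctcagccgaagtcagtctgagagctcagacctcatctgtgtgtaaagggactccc
A match is a description of letters and not of binding.

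Neither inhibitor changed a fatty acid gene against TAC at the threshold. With the PDE5A inhibitor 0 of 35 were called (edgeR, and also 0 with DESeq2), where 0.0141% of all tested genes were called higher and none lower. One gene had an unadjusted p under 0.05, against 5.17% of all tested genes. Of the 35 log2 fold changes 34 were above 0 and 1 below, with a median of 0.15, where 51.1% of all tested genes were below 0. Scaled to the cardiomyocyte markers, 3 were below 0 and the median was 0.13. The lowest p values were those of Fabp4, Cpt2 and Acot2, whose log2 fold changes were 0.31 (SE 0.10, edgeR adjusted p = 0.947), 0.28 (SE 0.18) and 0.36 (SE 0.23). For Cd36 the interval of 2 SE to each side ran from -0.11 to 0.35, for Cpt1b from -0.08 to 0.40 and for Cpt1a from -0.27 to 0.10.

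Against TAC, 0 of 35 were called with the PDE9A inhibitor (edgeR, and also 0 with DESeq2), where 0% of all tested genes were called higher and 0.00707% lower. One gene had an unadjusted p under 0.05, against 14.6% of all tested genes. Of the log2 fold changes 33 were above 0 and 2 below, with a median of 0.19, where 48.9% of all tested genes were below 0. Scaled to the cardiomyocyte markers, 10 of the 35 were below 0 and their median was 0.06; that scaling moved the median of all genes to -0.12, and relative to it the median of the 35 was 0.18 and 2 were below. The lowest p values were those of Acacb, Lpl and Pnpla2, with log2 fold changes of 0.39 (SE 0.17, edgeR adjusted p = 0.31), 0.34 (SE 0.16) and 0.28 (SE 0.14). For Cd36 the interval ran from -0.16 to 0.28, for Cpt1b from -0.11 to 0.36 and for Cpt1a from -0.14 to 0.21. Both inhibitor comparisons use the same TAC libraries, so their directions are not independent of each other or of TAC against sham.

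Set against each other, PDE5A inhibitor and PDE9A inhibitor hearts had no called difference in the 35 genes (edgeR, and also 0 with DESeq2), where 0.00707% of all tested genes were called higher and none lower. One gene had an unadjusted p under 0.05, against 10.4% of all tested genes, and 24 log2 fold changes were below 0, with a median of -0.07, against 51.6% of all tested genes below 0. Scaled to the cardiomyocyte markers 12 were below 0 and the median was 0.03, while the median of all genes moved to 0.08. Relative to that median 21 of the 35 were below, and their median was -0.04. With library totals alone 19 were below 0 and the median was -0.02, while that of all genes was 0.04. Relative to the latter, 21 of the 35 were below, and their median was -0.05. None of the 35 separated the groups in either direction. Of all tested genes 0.382% were lower without overlap, and the share higher without overlap was not counted. Fabp4 had the lowest p, with 359 ± 34.9 CPM in the PDE5A inhibitor group and 298 ± 34.9 CPM in the PDE9A inhibitor group (SD, n = 5 and 6; log2 fold change 0.27, SE 0.10, edgeR adjusted p = 0.371). The next were Lpl (-0.27, SE 0.16) and Fabp3 (0.19, SE 0.12). Sildenafil and PF-04449613 inhibit different enzymes, and doses are not given, so equal exposure cannot be assumed.

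Against sham, 8 of the 35 genes fell in the PDE5A inhibitor group: Etfb, Fabp4, Acot1, Lpl, Cd36, Cpt1a, Ech1 and Etfa (edgeR, adjusted p under 0.05), where 7.8% of all tested genes were called lower and 6.81% higher. All 35 were below 0, against 50.3% of all tested genes, with a median of -0.44, and 24 had every PDE5A inhibitor library below every sham library, which held for 8.75% of all tested genes. Fabp4 fell by 0.42 (SE 0.10), Etfb by 0.77 (SE 0.18) and Cpt1a by 0.29 (SE 0.09). With the leading ear tag digit as a term none of the 8 was called, and calls over all genes were 276 in place of 2066; no PDE5A inhibitor animal and 3 of 5 sham animals had a tag in the 100s. The count was 0 without PDE5A inhibitor library 4, 2 without PDE5A inhibitor library 3 or sham library 4, 3 without PDE5A inhibitor library 5 or sham library 1 or 2, 4 without sham library 3, 5 without TAC library 1, 14 without TAC library 2 and 13 without PDE9A inhibitor library 3. Calls over all genes in those fits ran from 580 without PDE5A inhibitor library 4 to 2297 without TAC library 2, in place of 2066. Of all calls 53.4% were lower, against 27.8% with library totals alone and 17.2% with libraries scaled to the cardiomyocyte markers, a scaling that left 33 of the 35 genes below 0 (all but Fabp3 and Cpt1b), moved the median of all genes to 0.19 and kept all 35 below that median. Fibroblast markers rose in 5 of 10 cases, activated fibroblast markers in 7 of 8, and cardiomyocyte markers fell in 2 of 12.

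In the PDE9A inhibitor group 2 of the 35 genes fell against sham, Fabp4 by 0.69 (SE 0.10, edgeR adjusted p = 0.00259) and Cd36 by 0.43 (SE 0.11, edgeR adjusted p = 0.0365), where 1.65% of all tested genes were called lower and 2.17% higher. All 35 were below 0, against 49% of all tested genes, with a median of -0.38. In 13 every PDE9A inhibitor library was below every sham library, which held for 1.87% of all tested genes. With the leading ear tag digit as a term neither was called, and calls over all genes were 6 in place of 540. The count was 1 without PDE9A inhibitor library 1, 3 or 4, or without sham library 1, 2, 3 or 4, and 4 without PDE9A inhibitor library 6. Calls over all genes in those fits ran from 21 without sham library 3 to 1814 without PDE9A inhibitor library 6, in place of 540. Of all calls 43.1% were lower, against 31.9% with library totals alone. Scaled to the cardiomyocyte markers, 34 of the 35 genes were below 0 (all but Acacb), and all 35 were below the median of all genes, which moved to 0.12. Fibroblast markers rose in 2 of 10 cases, activated fibroblast markers in 5 of 8, 1 of 10 endothelial markers fell, and none of 12 cardiomyocyte markers was called. A call in one group and not in the other does not show that the groups differ, and the direct comparison of the inhibitors had no call.

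**Figure D4:**
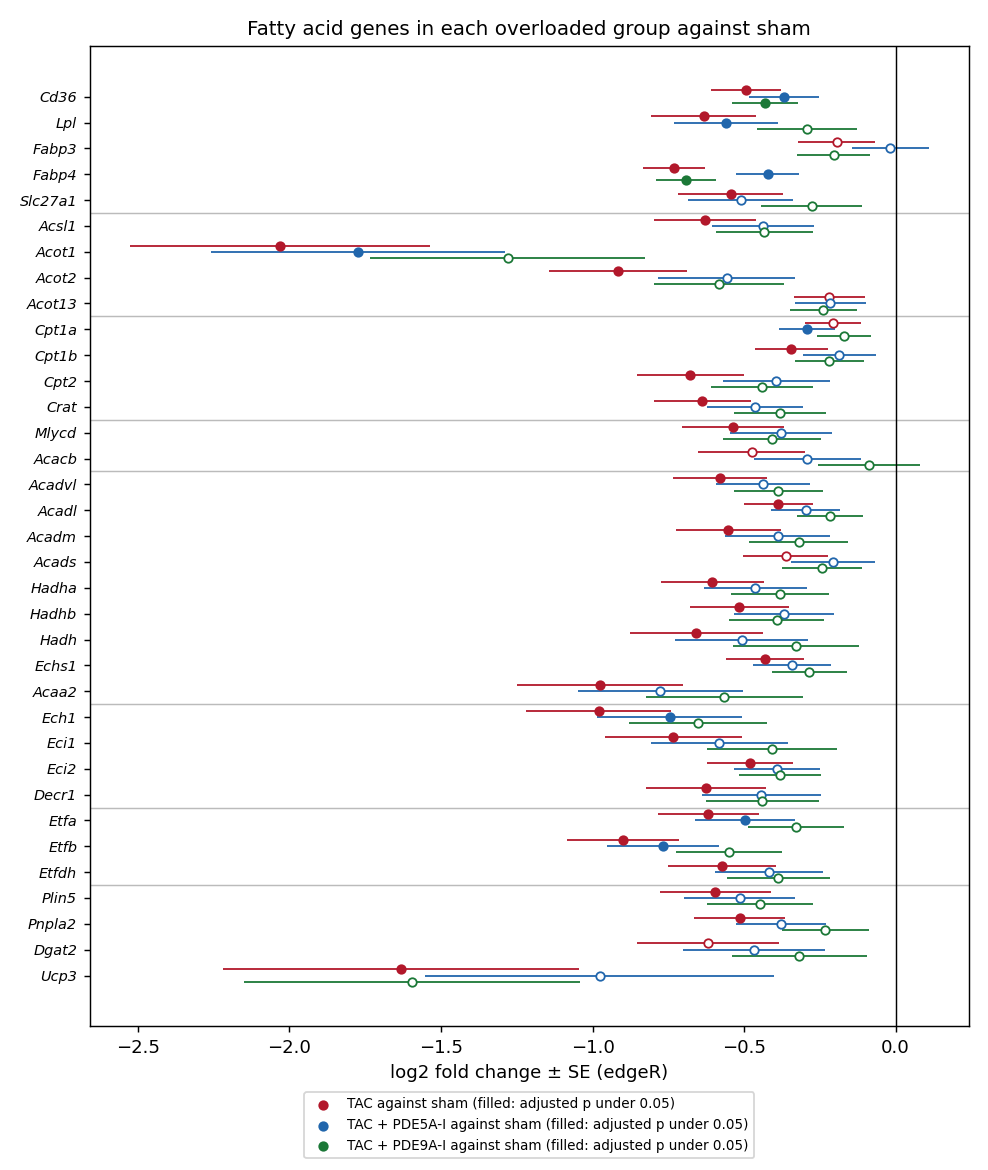
Log2 fold change against sham with its SE for each of the 35 genes, in TAC (red), with the PDE5A inhibitor (blue) and with the PDE9A inhibitor (green); filled points passed an adjusted p under 0.05. With TMM scaling all points lie left of 0, with 29 filled in TAC, 8 with the PDE5A inhibitor and 2 with the PDE9A inhibitor, and the 3 contrasts share the sham libraries.

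Most inhibitor libraries lay within the range of the TAC libraries, which was -1.15 to -0.24 for the mean of the 35 genes. Only PDE9A inhibitor libraries 5 and 6 lay above it, and no inhibitor library reached the sham range. The mean log2 level of the 35 genes relative to sham was -0.28, -0.27, -0.64, -0.87 and -0.46 in PDE5A inhibitor libraries 1 to 5. In PDE9A inhibitor libraries 1 to 6 it was -0.41, -0.29, -0.87, -0.82, -0.19 and -0.16, and sham libraries lay between -0.09 and 0.15. The genes' share of all counts was 2.37% ± 0.276 with the PDE5A inhibitor and 2.37% ± 0.366 with the PDE9A inhibitor (SD, n = 5 and 6). Cardiomyocyte markers moved in the same direction by less: their mean was -0.24 in TAC, -0.19 with the PDE5A inhibitor and -0.11 with the PDE9A inhibitor, relative to sham. Their part in the result was not tested beyond the scaling given above.

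Myh7, the myosin of fetal and overloaded mouse hearts, ran from 2783 to 8670 CPM in TAC and from 198 to 326 CPM in sham. Within TAC the lowest Myh7, 2783 CPM, was in library 2, where the fatty acid genes were highest, and libraries 3 and 4, where they were lowest, had 8670 and 7648 CPM. In PDE5A inhibitor libraries 1 and 2, the highest of that group for the fatty acid genes, Myh7 was 380.1 and 419.8 CPM, while library 5, which was intermediate for the fatty acid genes, had 6931 CPM. Library 4, the lowest of that group for the fatty acid genes, had less Myh7 than library 5, 5714 CPM, and library 3 had 3386 CPM. In PDE9A inhibitor libraries 5 and 6 Myh7 was 592 and 432 CPM, in libraries 3 and 4 it was 9100 and 4401 CPM, and in libraries 1 and 2 it was 2955 and 1747 CPM. Myh7 was chosen for this description after its values were seen, and the sources do not state the severity of constriction in each animal.

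**Figure D5:**
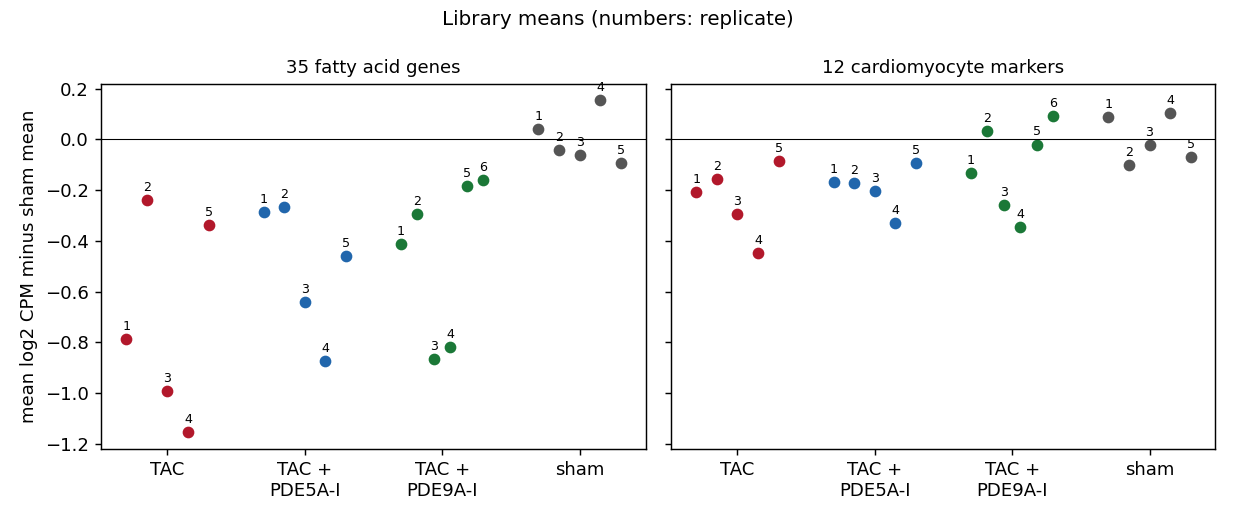
Mean log2 CPM minus the sham mean for each library, for the 35 fatty acid genes (left) and 12 cardiomyocyte markers (right); numbers are replicates. TAC libraries 3 and 4 are lowest for the fatty acid genes at -0.99 and -1.15, while the cardiomyocyte markers stay between -0.45 and 0.10.

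Ear tags start with 1, 5 or 6, and the sources do not say whether that marks a cohort. Within the 100s the median difference of the 35 genes between TAC and sham was -0.43 (2 and 3 libraries), and within the 600s it was -0.71 (2 and 2 libraries). With the PDE5A inhibitor against TAC it was 0.64 in the 500s (2 and 1 libraries) and 0.13 in the 600s (3 and 2). With the PDE9A inhibitor against TAC it was 0.08 in the 100s (1 and 2), 0.39 in the 500s (4 and 1) and 0.59 in the 600s (1 and 2). Between the inhibitors, PDE5A against PDE9A, it was 0.25 in the 500s (2 and 4) and -0.44 in the 600s (3 and 1), opposite signs. Against sham it was -0.58 with the PDE5A inhibitor in the 600s (3 and 2), and with the PDE9A inhibitor -0.40 in the 100s (1 and 3) and -0.14 in the 600s (1 and 2).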

How the data were processed

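Expected counts per gene symbol were deposited by the authors as 1 table, not scaled between libraries, with decimals in 19% of values. Per the submitters' processing notes, which give neither role nor order, the tools were CASAVA 1.8.4, HISAT2 2.0.5, RSEM 1.3.0 and DESeq2 1.18.1, with build mm10; no source used here names the annotation. Dates stood where symbols belong in 27 rows, which were left unnamed.

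Counts were rounded, filtered by group with filterByExpr (14135 genes left), scaled by TMM and fitted in 1 model of the 4 groups over all 21 libraries with edgeR 4.0.16 in R 4.3.3 (glmQLFit with robust estimation, glmQLFTest), which was tested on simulated data. Benjamini-Hochberg adjustment ran over all genes tested, with calls at 0.05. SE is the log2 fold change over the root of F. Levels are TMM-scaled CPM, and log2 CPM uses a prior count of 2. Isoform shares used two-sided exact permutation tests, adjusted over 6 comparisons. Each library has its own ear tag, taken here as a separate animal. Coordinates are from GENCODE M21 (GRCm38) and promoters from RefSeq (GRCm38.p6).

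All 35 genes are named; those given by library are the called gene of lowest p in each step in TAC against sham, those not called there, the 3 of lowest p in each comparison without calls, and Cd36, Cpt1a and Cpt1b. Of the other pathway genes, 52 were listed and 50 tested, and up to 2 called genes of lowest p per list and any that rose are named. Genes, lists and tests were chosen with earlier results of these data known. Alternatives were DESeq2 1.42.0, other scalings, no filter, only the groups compared, leading ear tag digit or replicate number as a term, and leaving out each library.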

Additional observations from a re-analysis of the deposited data

Results flagged for a closer look

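In 4 of 144 groups of values tested, 1 library lay apart from the rest by Dixon's criterion, where chance alone would flag about 1 in 20 groups, or 7.2. Ucp3 was 49.0 CPM in PDE9A inhibitor library 5, with the next library at 26.2 CPM. In sham library 4, Mlycd was 133 CPM (next 116), Acacb 719 CPM (next 540) and Pnpla2 273 CPM (next 211). Sham library 4 had the most counts of all libraries and was the highest of its group for 22 of the 35 fatty acid genes.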

How the results depend on the processing

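Of 1131 results for single called genes under an alternative, 950 kept their call, 181 lost it and 0 changed direction. In TAC against sham the 29 falls became 32 with DESeq2 and 32 with the replicate block. They became 27 with only the 2 groups compared, 24 with the ear tag term, and 12 to 32 when 1 library was left out. Under none of the alternatives did a gene rise. Over all genes the 3558 calls became 4141, 3896, 3925 and 2681 in turn, and 1781 to 4440 leaving out 1 library. With the PDE5A inhibitor against sham the 8 falls became 15 with DESeq2, 4 with library totals, 4 scaled to cardiomyocyte markers, 5 without the filter, 30 with only the 2 groups compared, 0 with the ear tag term, 25 with the replicate block, and 0 to 14 leaving out 1 library. Over all genes the 2066 calls became 2764, 2011, 1876, 1637, 3440, 276 and 2575 in turn, and 580 to 2531 leaving out 1 library. With the PDE9A inhibitor against sham the 2 falls became 5 with DESeq2, 1 with only the 2 groups compared, 0 with the ear tag term, 25 with the replicate block, 1 to 4 leaving out 1 library, and 1 without PDE9A inhibitor libraries 1 and 4, an alternative chosen after seeing the data. Over all genes the 540 calls became 1529, 17, 6 and 2241 in turn, 21 to 1814 leaving out 1 library, and 18 without those 2 libraries. The other pathway genes' 21 falls became 10 and their 1 rise 8 when scaled to cardiomyocyte markers. Over all genes that scaling changed 1840 falls to 670 and 1718 rises to 4444. The 1 rise became 2 with DESeq2, library totals, only the 2 groups compared or the replicate block. In these fits calls over all genes were 4141, 3770, 3925 and 3896 in turn, in place of 3558. Leaving out 1 library gave 12 to 28 falls and 0 to 3 rises among the other pathway genes. Calls over all genes then ran from 1781 to 4440. The cause was not tested. Counts against TAC and between inhibitors stayed 0 under every alternative run.

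The labels do not say whether replicate numbers pair the animals. Of 30 same-numbered pairs of libraries, 8 correlated above 0.1 (range -0.225 to 0.564). Pairs with different numbers were not compared, so these values cannot settle it. The replicate block is given only as an alternative, in which PDE9A inhibitor library 6 has a level of its own. For the Cpt1a share of Cpt1a and Cpt1b, PDE9A inhibitor against TAC, the difference ran from -0.914 to 0.0435 percentage points leaving out 1 library, positive without TAC library 4. For the Cpt1a share of Cpt1a and Cpt1b, PDE9A inhibitor against sham, it ran from -0.178 to 0.812, and was -0.00579 without sham library 1 and -0.178 without PDE9A inhibitor library 4. Neither difference passed with all libraries. With 5 or 6 animals a group, the log2 fold changes against TAC with the PDE5A inhibitor had standard errors from 0.09 (Cpt1a) to 0.58 (Ucp3), beside a median change of 0.15.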
